A study of Mus musculus with 6 samples.

Results

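White adipose tissue renews its adipocytes from fibroblast-like progenitors, and 9 genes that mark these cells or their subsets were followed here in inguinal white adipose tissue (IngWAT) of the mouse. The genes were taken by symbol from the count tables, which list 34745 genes, and all 9 were found and passed the filter on low counts. Pdgfra and Ly6a mark the progenitors as a whole, Dpp4, Pi16, Cd55 and Anxa3 mark early interstitial progenitors, Icam1 marks committed preadipocytes, and F3 and Clec11a mark the CD142 group. IngWAT of male mice was profiled by RNA-seq in 3 WT and 3 adipose-specific Slc35d3 knock-in (SAKI) animals. SAKI mice carried an LSL-Slc35d3 transgene, silent until Cre removes a stop, together with Cre under the adiponectin promoter, which is active in mature adipocytes. WT mice carried the LSL-Slc35d3 locus without Cre, so both groups shared the transgene and the C57BL/6 background. All 6 mice received a chow with 10% of its energy from fat for 10 weeks from 6 weeks of age, and the labels give PBS perfusion as the treatment of every sample.

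Progenitors of fat are defined by surface proteins that allow them to be sorted. In current schemes, DPP4+ cells lie in the connective tissue sheet around the fat lobules, can renew, and give rise to ICAM1+ preadipocytes that sit near vessels and readily become adipocytes. Cells with CD142, the product of F3, form a further population, for which both inhibition of adipocyte formation and ready differentiation have been described. None of these genes is made by progenitors alone, since Icam1 and F3 are also used by vessels and immune cells, and Dpp4 by T cells. In bulk tissue, fewer cells of a type and less RNA per cell cannot be told apart.

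The libraries held 15354161 to 18787036 counts (median 15732636). Slc35d3, the gene added in SAKI mice, was at 73.3, 82.1 and 74.4 CPM (the count scaled to the library's total with TMM factors) in WT 1 to 3 and at 745, 793 and 770 CPM in SAKI 1 to 3, which matched the labels (log2 fold change 3.33, edgeR adjusted p = 0.000244). One WT library, WT 2, stood apart from the other two. Over the 15400 genes tested, the root mean square log2 difference of WT 2 was 0.48 to the SAKI mean. It was 0.70 to the mean of WT 1 and WT 3, and WT 1 and WT 3 differed from each other by 0.58. A distance to a mean and a distance to a single library differ in noise. For the 9 progenitor genes the same distances were 0.30, 1.35 and 0.52. The share of mitochondrial counts was 7.31% in WT 1, 8.79% in WT 3 and 13.8% in WT 2, against 13.1% to 15.9% in SAKI mice. The values of the 9 genes that rest on WT 2, or on WT 1 and WT 3, are therefore given with and without them, and calls among further subset, stromal, partner and macrophage genes are also given without WT 2. WT 2 was singled out after these values were seen. Leaving it out narrows the spread among WT mice in genes where it lies apart, so p-values without WT 2 do not cover the spread among all 3 WT mice.

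With all 6 libraries, 0 of the 9 genes passed an adjusted p of 0.05 in edgeR's quasi-likelihood test, where 0.0325% of the 15400 genes tested did. Limma-voom called 0 of 9 as well. At an unadjusted p under 0.05 in edgeR there was 1 of 9, against 18.4% of all genes (8.36% higher and 9.99% lower in SAKI mice). That gene, F3, was also the 1 member whose 3 WT and 3 SAKI values did not overlap (25.4% of all genes did not, 13.0% being higher and 12.4% lower in SAKI mice). It was also the 1 member called by DESeq2, which called 4.67% of genes, 2.7% being lower. The 4 interstitial genes had log2 fold changes (SAKI minus WT) above 0, with a median of 0.65 against 0.00 for all genes, and none passed the test. Without WT 2, 6 of 9 passed, against 16.6% of all genes: the 4 interstitial genes and Clec11a were higher (7.41% of all genes were called higher) and F3 was lower (9.14% were called lower). With WT 2 as the only WT library, 0 of 9 passed, against 0.472% of all genes.

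**Figure D1:**
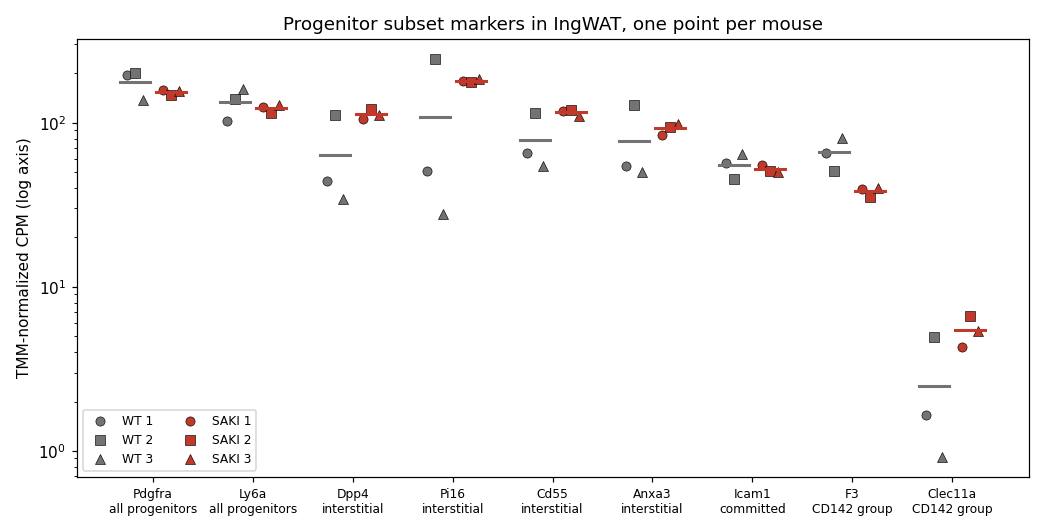
TMM-normalized CPM of the 9 genes on a log axis, 1 point per mouse (grey, WT; red, SAKI) with group means as bars. In Dpp4, Pi16, Cd55, Anxa3 and Clec11a, WT 1 and WT 3 lie below the SAKI mice and WT 2 lies among or above them, while F3 is lower in all 3 SAKI mice.

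Pdgfra, the receptor for platelet-derived growth factors that is used to define these progenitors, lies on chr5:75152292-75198215 of GRCm38, plus strand. Its CPM was 196, 201 and 137 in WT 1 to 3 and 158, 148 and 157 in SAKI 1 to 3. WT 1 and WT 2 were above all SAKI mice and WT 3 below them, so the groups overlapped. Between genotypes the log2 fold change was -0.21 ± 0.16 (SE, n = 3 per group; edgeR adjusted p = 0.513), and it was -0.11 without WT 2. Ly6a (chr15:74994877-74998031, minus strand) encodes SCA-1, a lipid-anchored surface protein used with PDGFRA to sort progenitors. It was at 102, 139 and 160 CPM in WT mice and at 124, 114 and 129 CPM in SAKI mice, all SAKI values lying within the WT range. Its log2 fold change was -0.13 ± 0.17 (edgeR adjusted p = 0.704). Ly6a belongs to a family of similar genes, and no source used here tells how reads shared between them were counted.

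The interstitial genes had another pattern. Dpp4 (chr2:62330073-62412231, minus strand) encodes CD26, a surface peptidase that cleaves short peptides, incretins among them. It was at 43.9, 112 and 34.2 CPM in WT 1 to 3 and at 106, 121 and 112 CPM in SAKI mice. WT 2 lay within the SAKI range, and WT 1 and WT 3 were below every SAKI mouse. The log2 fold change was 0.83 ± 0.42 (edgeR adjusted p = 0.333) with all libraries, 1.53 ± 0.14 (adjusted p = 0.00344) without WT 2, and -0.01 with WT 2 alone.

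Pi16 (chr17:29318877-29329413, plus strand) encodes a secreted or membrane-bound protein named as a peptidase inhibitor and is a marker of fibroblasts around vessels in many tissues. It was at 50.6, 245 and 27.7 CPM in WT mice and at 180, 176 and 185 CPM in SAKI mice. WT 2 was the highest of the 6 libraries and WT 3 the lowest, an 8.86-fold range among WT mice. This range was wider than in 98.6% of the 14559 genes with a mean of at least 1 CPM. The SAKI mice differed by 1.05-fold in Pi16. Its log2 fold change was 0.74 ± 0.72 (edgeR adjusted p = 0.601), 2.21 ± 0.25 (adjusted p = 0.00661) without WT 2, and -0.46 with WT 2 alone.

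Cd55 (chr1:130439027-130462744, minus strand) encodes decay-accelerating factor, which protects cells from complement. It was at 65.5, 114 and 54.7 CPM in WT mice and at 117, 120 and 110 CPM in SAKI mice, WT 2 again falling within the SAKI range. For Cd55 the log2 fold change was 0.57 ± 0.26 (edgeR adjusted p = 0.297), 0.95 ± 0.11 (adjusted p = 0.00697) without WT 2, and 0.01 with WT 2 alone. Its tandem relative Cd55b was at no more than 0.465 CPM in any library. Anxa3 (chr5:96793339-96845966, plus strand) encodes a calcium-dependent phospholipid-binding protein. It was at 54.8, 128 and 50.3 CPM in WT mice and at 84.5, 94.2 and 98.5 CPM in SAKI mice. WT 2 exceeded every SAKI mouse and the other WT mice were below them. The log2 fold change was 0.25 ± 0.35 (edgeR adjusted p = 0.720), 0.82 ± 0.11 (adjusted p = 0.00902) without WT 2, and -0.48 with WT 2 alone.

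Icam1 (chr9:21015960-21028797, plus strand), an adhesion molecule bound by leukocyte integrins, was the single marker of committed preadipocytes. It was at 56.7, 45.6 and 64.2 CPM in WT mice and at 55.1, 50.6 and 50.4 CPM in SAKI mice. WT 2 was the lowest library and WT 3 the highest, with the SAKI mice between them. Its log2 fold change was -0.09 ± 0.14 (edgeR adjusted p = 0.743), -0.21 ± 0.10 (adjusted p = 0.194) without WT 2, and 0.18 with WT 2 alone.

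The 2 genes of the CD142 group differed from each other in direction. F3 (chr3:121723537-121735048, plus strand) encodes tissue factor, the receptor for coagulation factor VII that starts clotting. It was at 65.4, 51.0 and 81.1 CPM in WT mice (65.9 ± 15, SD) and at 39.4, 35.4 and 39.8 CPM in SAKI mice (38.2 ± 2.44). All 3 SAKI mice were below all WT mice, the nearest being WT 2. The log2 fold change of -0.79 ± 0.17 had an unadjusted p of 0.0027 in edgeR and did not pass after adjustment (adjusted p = 0.163), whereas DESeq2 gave -0.80 with an adjusted p of 0.00788. Without WT 2 it was -0.94 ± 0.13 (edgeR adjusted p = 0.00929), and with WT 2 alone -0.43.

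Clec11a (chr7:44302687-44306902, minus strand) encodes a secreted growth factor of the C-type lectin family, also called osteolectin. It was the lowest of the 9, with 27, 76 and 14 counts in WT mice and 66, 103 and 104 in SAKI mice. These were 1.66, 4.93 and 0.917 CPM in WT mice and 4.30, 6.66 and 5.38 CPM in SAKI mice. WT 1 and WT 3 were below all SAKI mice and WT 2 lay between SAKI 1 and SAKI 3, the order seen for Dpp4 and Cd55 rather than for F3. The log2 fold change was 1.12 ± 0.57 (edgeR adjusted p = 0.334), 2.07 ± 0.36 (adjusted p = 0.0171) without WT 2, and 0.13 with WT 2 alone.

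**Figure D2:**
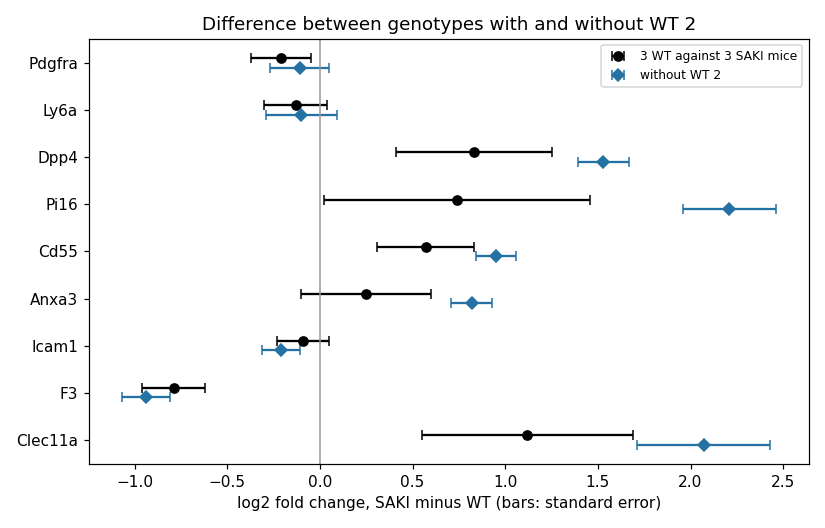
log2 fold change of each gene (SAKI minus WT; bars, SE) in the fit of 3 against 3 mice (black circles) and without WT 2 (blue diamonds). Pi16 moves from 0.74 to 2.21 and Dpp4 from 0.83 to 1.53 when WT 2 is left out, while F3 stays below 0 in both.

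To compare promoters of genes with like and unlike patterns over the 6 libraries, the 200 bases before the RefSeq start (GRCm38.p6) were read for Dpp4, Cd55 and Clec11a, which shared the low values of WT 1 and WT 3, and for F3, which did not. RefSeq windows were found for 7 of the 9 genes, without Ly6a and Anxa3. Pi16 shared the low values of WT 1 and WT 3, but all 200 bases of its window lie within annotated exons, so it is not printed. Of the F3 window, 66 bases lie within annotated exons, and 0 bases of the Dpp4, Cd55 and Clec11a windows do. Each sequence is written 5′ to 3′ on the strand of the gene, with matches to the searched letters in capitals.
Dpp4, chr2:62412232-62412431, minus strand: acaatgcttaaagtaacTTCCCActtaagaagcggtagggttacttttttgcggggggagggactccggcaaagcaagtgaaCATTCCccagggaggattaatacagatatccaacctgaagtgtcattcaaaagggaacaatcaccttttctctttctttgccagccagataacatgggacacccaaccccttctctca
Cd55, chr1:130462745-130462944, minus strand: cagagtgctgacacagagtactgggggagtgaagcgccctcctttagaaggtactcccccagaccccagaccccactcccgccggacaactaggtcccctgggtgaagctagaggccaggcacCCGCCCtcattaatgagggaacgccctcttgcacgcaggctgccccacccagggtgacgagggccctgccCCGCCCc
Clec11a, chr7:44306960-44307159, minus strand: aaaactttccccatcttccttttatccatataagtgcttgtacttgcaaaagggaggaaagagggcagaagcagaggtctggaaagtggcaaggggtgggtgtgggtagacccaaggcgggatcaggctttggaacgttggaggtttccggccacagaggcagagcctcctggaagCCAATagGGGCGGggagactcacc
F3, chr3:121723337-121723536, plus strand: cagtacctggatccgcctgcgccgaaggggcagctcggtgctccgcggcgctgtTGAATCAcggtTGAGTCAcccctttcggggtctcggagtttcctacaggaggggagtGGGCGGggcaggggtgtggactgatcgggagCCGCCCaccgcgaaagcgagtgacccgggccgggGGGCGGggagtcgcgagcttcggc

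Both strands were searched for 6 short motifs: AP-1 (TGANTCA), RBPJ (TGGGAA), TEAD (GGAATG), Sp (GGGCGG), the CCAAT box (CCAAT) and the TATA box (TATAAA). The F3 window held 2 AP-1 matches, at -146 to -140 and -135 to -129 from the start, and 3 Sp matches. AP-1 letters occurred in 5.48% and Sp letters in 31.0% of the 32851 RefSeq windows of the same length. Dpp4 held 1 RBPJ match (17.3% of windows) and 1 TEAD match (10.1%), both on the opposite strand. Cd55 held 2 Sp matches, and Clec11a 1 CCAAT box (29.3% of windows) and 1 Sp match. The Pi16 window also held 1 CCAAT box and none of the other motifs. No TATA box letters (9.96% of windows) were in the 4 windows, and Dpp4, Cd55 and Clec11a had no motif common to all 3. The GC content was 70.0% for F3, 66.0% for Cd55, 54.5% for Clec11a and 46.0% for Dpp4, with a mean of 53.9% over all windows. A match describes letters in the window and not binding.

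To ask whether the subset genes differed relative to the progenitors as a whole, each of the other 8 genes was divided by Pdgfra in the same library, which removes the scaling between libraries. The test was a two-sided exact permutation test over the 6 mice, whose smallest p is 0.1 for 3 against 3, so that no ratio could reach 0.05. The log2 ratio of Dpp4 was -2.16, -0.84 and -2.00 in WT mice and -0.58, -0.29 and -0.49 in SAKI mice. Of the 8 ratios, 3 were higher and 1 lower in SAKI mice without overlap, against 21.0% higher and 1.32% lower among the ratios to Pdgfra of the 15338 genes with a count in every library, all of which share this denominator. For Dpp4 every SAKI mouse was above every WT mouse, by 1.21 on the log2 scale on average (exact p = 0.1). For Cd55 the ratio was -1.58, -0.82 and -1.33 in WT mice and -0.44, -0.30 and -0.52 in SAKI mice, again without overlap (difference 0.82, exact p = 0.1). WT 2, which matched SAKI mice in the CPM of both genes, was thus below them once Pdgfra was set as the reference, and its Pdgfra was the highest of the 6 libraries.

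Pi16 to Pdgfra was -1.95, 0.29 and -2.31 in WT mice and 0.18 to 0.25 in SAKI mice, where WT 2 was the highest of all and the groups overlapped (difference 1.55, exact p = 0.4). Anxa3 differed by 0.57 with overlap (exact p = 0.3), Ly6a by 0.08 (exact p = 0.8) and Icam1 by 0.10 (exact p = 0.7). Clec11a was at -6.88, -5.35 and -7.23 in WT mice and -5.20, -4.47 and -4.87 in SAKI mice, all SAKI mice being higher (difference 1.64, exact p = 0.1). F3 was at -1.58, -1.98 and -0.76 in WT mice and -2.01, -2.06 and -1.98 in SAKI mice. WT 2 and SAKI 3 met at the same rounded value, so that the separation of F3 (difference -0.58, exact p = 0.1) was narrow. With the mean log2 CPM of 12 shared stromal genes as the reference, Dpp4 (0.65), Cd55 (0.26) and F3 (-1.14) were still without overlap, Clec11a (1.08) overlapped, and Anxa3 differed by 0.01. On that reference 2.39% of genes were higher and 7.62% lower without overlap.

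**Figure D3:**
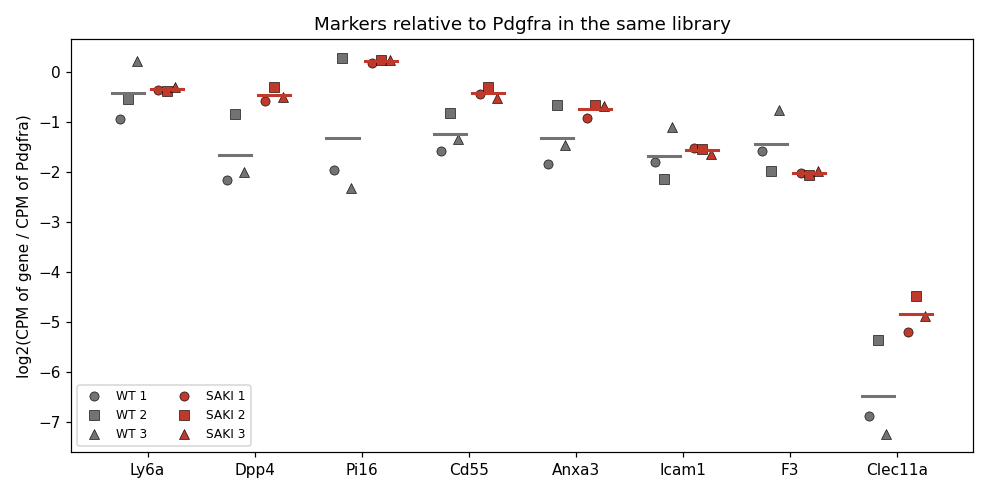
log2 ratio of each gene's CPM to that of Pdgfra in the same library, 1 point per mouse (grey, WT; red, SAKI) with group means as bars. Dpp4, Cd55 and Clec11a lie higher in all 3 SAKI mice, Pi16 and Anxa3 overlap through WT 2, and F3 of WT 2 and SAKI 3 meet at -1.98.

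Levels were compared between genes per length, in the deposited FPKM. In WT mice Ly6a was highest at 38.2 ± 6.81 FPKM (SD, n = 3), and its lowest WT mouse, at 30.9, was above the highest WT value of the next gene in the order, 24.1 for Icam1, but below Pi16 of WT 2, at 31.9. Icam1 (21.7 ± 3.67), F3 (19.4 ± 4.25), Anxa3 (15.1 ± 8.20), Pi16 (14.2 ± 15.5), Cd55 (12.4 ± 4.83), Pdgfra (11.8 ± 2.69) and Dpp4 (8.74 ± 5.70) followed, and every pair of neighbours among these overlapped. Clec11a was lowest at 0.828 ± 0.690 FPKM.

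In SAKI mice, whose values were closer together, the order was Ly6a (35.6 ± 2.61), Pi16 (24.3 ± 1.05), Icam1 (20.6 ± 0.653), Cd55 (18.7 ± 0.671), Anxa3 (18.4 ± 1.82), Dpp4 (15.8 ± 1.23), F3 (11.4 ± 0.80), Pdgfra (10.4 ± 0.428) and Clec11a (1.84 ± 0.416). Here only Cd55 with Anxa3, Anxa3 with Dpp4, and F3 with Pdgfra overlapped as neighbours. F3 was the third of the 9 in WT mice and the seventh in SAKI mice, and Pi16 the fifth and the second. The length behind the FPKM was 0.583 times the merged exons of the GENCODE annotation for Icam1 and 2.86 times for Ly6a. Per kilobase of merged exons, Ly6a was still first (106 CPM per kilobase over all mice), while Icam1 was the eighth (12.3) rather than the second.

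The spread within a group differed between the genes as well. Among WT mice the highest value over the lowest was 8.86 for Pi16, 5.38 for Clec11a, 3.29 for Dpp4, 2.54 for Anxa3 and 2.08 for Cd55. The median over the 14559 genes with a mean of at least 1 CPM was 1.42. This ratio was 1.41 for Icam1, 1.47 for Pdgfra, 1.58 for Ly6a and 1.59 for F3. Among SAKI mice it ran from 1.05 for Pi16 to 1.55 for Clec11a, and the median over the same 14559 genes was 1.18.

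Likeness was measured as the root mean square difference of log2 CPM over the 6 libraries, each gene centred on its own mean. Among the members, Dpp4 was nearest to Clec11a (0.275), Cd55 (0.287) and Anxa3 (0.342), and farthest from F3 (1.145). F3 was nearest to Icam1 (0.349) and lay at 1.392 from Clec11a, the other gene of its group. Outside the members, the genes most like Dpp4 were Glt8d2 (0.060), Miat (0.061) and C1qtnf6 (0.090). C1qtnf6, for example, was at 13.7, 39.8 and 10.9 CPM in WT mice and at 38.7, 41.5 and 41.6 CPM in SAKI mice, with WT 2 near the SAKI mice as in Dpp4. Those most like F3 were Itga7 (0.062), Lrrc59 (0.065) and Timm23 (0.070), and Itga7 was at 180, 129 and 202 CPM in WT mice and at 96.7, 92.4 and 96.4 CPM in SAKI mice. Fgd5, A4galt and Borcs6 were most like Pdgfra (0.038 to 0.052), and Rpf2, Wdr36 and Trmt6 were most like Icam1 (0.029 to 0.038). These distances are descriptions over 6 libraries.

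Further genes of the same subsets were read from the same fit. Of 9 other interstitial genes, 8 had a log2 fold change above 0 (median 0.43) and 0 passed the adjusted test, with 1 at an unadjusted p under 0.05 in edgeR and 0 called by DESeq2. Efhd1, a mitochondrial calcium-binding protein, was at 4.6, 29.6 and 6.74 CPM in WT mice and at 22.3, 23.3 and 22.4 CPM in SAKI mice. Pcolce2, which enhances procollagen processing, was at 31.5, 95.8 and 25.3 CPM in WT mice and at 67.7, 76.8 and 66.1 CPM in SAKI mice. As in Pi16 and Anxa3, WT 2 was highest in both genes and WT 1 and WT 3 were lowest. Efhd1 had a log2 fold change of 0.73 with all libraries (edgeR adjusted p = 0.553) and 2.00 without WT 2 (adjusted p = 0.00405), and Pcolce2 of 0.46 (adjusted p = 0.619) and 1.31 (adjusted p = 0.00498). Il13ra1, a receptor chain for interleukin-13, was the 1 gene of the 9 without overlap, where 13.0% of all genes were higher in SAKI mice without overlap. It was higher in SAKI mice by 0.27 ± 0.12 on the log2 scale (edgeR adjusted p = 0.270). Without WT 2 the median was 1.31 and 6 of the 9 were called higher, against 7.41% of all genes.

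Of 10 other genes of committed preadipocytes, several of which are also made by adipocytes or vessels, 9 had a log2 fold change below 0 (median -0.31). None passed the adjusted edgeR test, 4 were lower at an unadjusted p under 0.05, and DESeq2 called 1 lower. Aoc3, an amine oxidase of adipocytes and smooth muscle, was at 1400, 981 and 1510 CPM in WT mice and at 847, 825 and 761 CPM in SAKI mice, without overlap (log2 fold change -0.68 ± 0.18, edgeR adjusted p = 0.181). Col15a1, a collagen of basement membranes, was at 433, 213 and 445 CPM in WT mice and at 195, 199 and 224 CPM in SAKI mice, with WT 2 among the SAKI mice. Without WT 2, the median of the list was again -0.31 and 2 of the 10 were called lower, against 9.14% of all genes. These were Aoc3 (-0.84, edgeR adjusted p = 0.00838) and Col15a1 (-1.09, adjusted p = 0.00393). Icam1, at -0.09, was closer to 0 than the median of these 10. The 6 other genes of the CD142 group had a median of 0.09, with 4 above and 2 below 0, and neither edgeR, adjusted or unadjusted, nor DESeq2 called any of them. Without WT 2, edgeR called Abcg1, a cholesterol exporter, lower (-0.63, adjusted p = 0.0118), the direction of F3, while Clec11a was called higher.

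Of 12 stromal genes shared by progenitors and other fibroblasts, 10 were above 0 (median 0.43) and 0 passed the adjusted test in edgeR, with 1 higher and 2 lower at an unadjusted p under 0.05. Those 2, both also called lower by DESeq2, were Zfp423 and Pdgfrb. Zfp423, a transcription factor of preadipocyte commitment, was at 29.6, 44.4 and 41.7 CPM in WT mice and between 19.9 and 20.9 CPM in SAKI mice (log2 fold change -0.93 ± 0.17, edgeR adjusted p = 0.148). Pdgfrb, the relative of Pdgfra that also marks pericytes, was at 213, 137 and 165 CPM in WT mice and at 119, 97.2 and 109 CPM in SAKI mice (-0.66 ± 0.18, adjusted p = 0.180). Neither gene overlapped between groups, in contrast to Pdgfra. The gene higher at an unadjusted p under 0.05 was Thy1, at 96.3, 68.2 and 75.3 CPM in WT mice and 101, 94.9 and 115 CPM in SAKI mice. Its lowest library was WT 2, and its groups overlapped (0.37, edgeR adjusted p = 0.267). Col3a1, a fibrillar collagen, was at 2130, 5140 and 1520 CPM in WT mice and at 5030, 4910 and 5660 CPM in SAKI mice, with WT 2 again among the SAKI mice (0.83, adjusted p = 0.344). Without WT 2, the median of the 12 was 0.96, 7 were called higher and 2 lower, against 7.41% and 9.14% of all genes. Col3a1 was then at 1.51 (edgeR adjusted p = 0.00746), Zfp423 at -0.81 (adjusted p = 0.0241) and Pdgfrb at -0.80 (adjusted p = 0.0189), while Thy1 was at 0.27 (adjusted p = 0.219).

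Of 16 ligands, partners and relatives of the 9 genes, 15 were tested and 0 passed the adjusted edgeR test, with 2 higher and 3 lower at an unadjusted p under 0.05 and 1 called lower by DESeq2. Pdgfa, a ligand of the receptor encoded by Pdgfra, was at 11.8, 7.52 and 11.2 CPM in WT mice and at 6.97, 5.89 and 5.63 CPM in SAKI mice (log2 fold change -0.72 ± 0.22, edgeR adjusted p = 0.198). Pdgfb was at 59.6, 63.0 and 57.9 CPM in WT mice and at 45.2, 41.8 and 38.8 CPM in SAKI mice (-0.52 ± 0.10, adjusted p = 0.148). Cd59a, which like Cd55 restrains complement, was lower in all 3 SAKI mice, with a log2 fold change of -0.47 ± 0.12 (edgeR adjusted p = 0.176), opposite in sign to Cd55. Itgb2, the integrin chain of the leukocyte partners of ICAM1, was at 93.0, 74.4 and 85.6 CPM in WT mice and at 108, 102 and 128 CPM in SAKI mice (0.42 ± 0.13, adjusted p = 0.210). Tfpi, the inhibitor of tissue factor, overlapped between groups (0.35 ± 0.33). Without WT 2, edgeR called 2 of the 15 higher and 3 lower, against 7.41% and 9.14% of all genes. The higher ones were Itga11 (2.30, edgeR adjusted p = 0.00471) and Ly6c1 (0.93, adjusted p = 0.0283), which both overlapped between groups with all libraries. The lower ones were Pdgfa (-0.90, edgeR adjusted p = 0.0207), Pdgfb (-0.49, adjusted p = 0.0271) and Cd59a (-0.55, adjusted p = 0.0193).

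**Figure D4:**
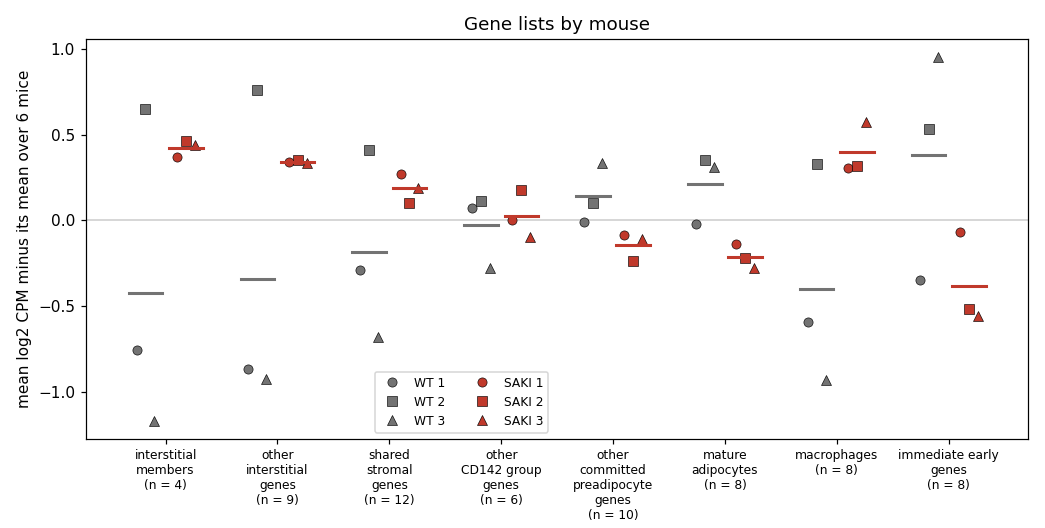
Mean log2 CPM of each gene list, minus its mean over the 6 mice, 1 point per mouse (grey, WT; red, SAKI), with group means as bars and the number of genes tested below each list. The 4 interstitial members, the 9 other interstitial genes, the stromal genes and the macrophage markers are lowest in WT 1 and WT 3. The other committed preadipocyte genes and the mature adipocyte markers are both lower in all SAKI mice.

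Markers of other cells were read in the same libraries. The summed level of 8 macrophage markers was 1170, 2070 and 955 CPM in WT 1 to 3 and 2120 to 2520 CPM in SAKI mice, and all 8 had a log2 fold change above 0 (median 0.69), with 0 called by the adjusted edgeR test, 3 higher at an unadjusted p under 0.05 and 1 called higher by DESeq2. Without WT 2, where 7.41% of all genes were called higher, all 8 were (median 1.21). Like the interstitial genes, they were low in WT 1 and WT 3, and their part in the values of Dpp4, Pi16, Cd55 and Anxa3 was not tested. The 8 markers of T and B cells, which include cells that use Dpp4, summed to 611, 352 and 535 CPM in WT mice and to 570 to 671 CPM in SAKI mice. WT 2, where Dpp4 was highest among WT mice, had the lowest sum. The 5 neutrophil markers summed to 12.3 to 30.6 CPM in WT mice and to 38.4 to 40.3 CPM in SAKI mice, and their part in Anxa3, which neutrophils also make, was not tested.

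For mesothelium, Wt1 was at 0 in all 6 libraries and the 4 markers summed to 1.66 to 3.18 CPM in WT mice and 2.27 to 2.39 CPM in SAKI mice. The 6 epithelial markers of skin and mammary gland summed to 2.40 to 14.0 CPM in WT mice and 3.98 to 6.53 CPM in SAKI mice, with Krt5 and Krt14 under 1 CPM everywhere. Mature adipocyte markers, which define the labelled tissue, were high in every library, at sums of 10300 to 15600 CPM in WT mice and 9500 to 10900 CPM in SAKI mice. Their sums overlapped, but their mean log2 CPM did not, at 10.11, 10.48 and 10.44 in WT mice and 9.99, 9.91 and 9.85 in SAKI mice. With all libraries, all 8 had a log2 fold change below 0 (median -0.43). The adjusted edgeR test called 0 of them, 4 were lower at an unadjusted p under 0.05, and DESeq2 called 2 lower. Without WT 2 the median was -0.38, and Adipoq (0.07) and Cfd (0.08) were above 0.

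F3 is also made by vessels and is an early response gene in several cell types. The 8 endothelial markers summed to 1140 to 1260 CPM in WT mice and 1100 to 1190 CPM in SAKI mice, with a median log2 fold change of -0.02. The 8 markers of smooth muscle and pericytes summed to 915 to 1070 CPM in WT mice and 672 to 848 CPM in SAKI mice, all 8 below 0 (median -0.43). The 8 immediate early genes, which respond to handling of tissue, summed to 246 to 489 CPM in WT mice and 149 to 194 CPM in SAKI mice, all 8 below 0 (median -0.87). The adjusted edgeR test called 0 genes of these lists. At an unadjusted p under 0.05 in edgeR, 2 endothelial, 3 smooth muscle and pericyte and 5 immediate early genes were lower (9.99% of all genes). DESeq2 called 0, 1 and 3 of them lower (2.7% of all genes). WT 3 had the highest sum of the immediate early genes and the highest F3, while WT 1 had the lowest sum among WT mice and WT 2 the lowest F3. The part of these genes in the F3 values was not tested.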

How the data were processed

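RNA-seq of IngWAT from 3 WT and 3 SAKI mice was analysed; each library is a separate mouse per the labels. The authors deposited raw counts per gene for each library and a joint table of FPKM values. The FPKM are these counts scaled to library total and gene length (length equal between libraries within 0.000636%). The build was GRCm38 per the submitters' processing notes, which list StringTie 1.3.0, Bowtie2 2.2.6 and HISAT2 2.0.4 without their roles. No source used here gives the counting tool or the strand setting. Counted antisense or other genes that share exons with Pdgfra, Dpp4, Cd55 and Anxa3 had at most 14 counts in a library. AC162182.1 (222 exon bases shared with Pi16), Gm47079 (511 with Icam1) and Mir7025 (30 with Pdgfra) were not among the counted genes, so their reads could not be checked. In edgeR 4.0.16 (R 4.3.3), genes were filtered with filterByExpr (count 10, total 15), scaled with TMM, and tested with the quasi-likelihood test by genotype, adjusted by Benjamini-Hochberg over 15400 genes (common biological coefficient of variation 23.27%). Alternatives used DESeq2 1.42.0, limma 3.58.1, other scalings and filters, a replicate block, and fewer libraries. The tests were checked on simulated data drawn gene by gene. That check does not cover a library in which many genes shift together. Named genes were the 9 members, up to 4 genes of smallest p per list, and for Pdgfra, Dpp4, Icam1 and F3 the 3 most alike genes with a mean of at least 1 CPM, leaving out predicted genes and immune receptor segments. Tfpi, Itga11, Ly6c1, Cd55b, Adipoq, Cfd, Wt1, Krt5 and Krt14 were named outside this rule after their values were seen. Members and lists were chosen with earlier results of these data known.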

Additional observations from a re-analysis of the deposited data

How the results depend on the processing

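The number of all genes called was 5 with the test as reported, 8 without a filter on low counts, 684 with DESeq2, 9 with limma on log2(FPKM + 1), 9 on log2(FPKM + 0.1), and 1 to 2598 when 1 library was left out. The highest of these, 2598, was without WT 2. Without WT 1 and WT 3, a setting chosen after seeing the data that assumes the lone WT library to vary like SAKI libraries, it was 76. The number of members called was 0 as reported, 1 with DESeq2, and 0 to 6 when 1 library was left out, the 6 being without WT 2. Of 152 values of member log2 fold changes under alternatives, 139 kept direction and side of the threshold, 7 newly passed it (6 without WT 2, and F3 with DESeq2) and 6 reversed. The reversed ones were Ly6a at 0.02 and Icam1 at 0.02 without WT 3, and Icam1 at 0.18, Dpp4 at -0.01, Pi16 at -0.46 and Anxa3 at -0.48 without WT 1 and WT 3. Of 64 ratios to Pdgfra, 4 reversed: with the stromal mean as reference Ly6a was at -0.48 and Icam1 at -0.46, Ly6a was at -0.19 without WT 1, and Icam1 at -0.13 without WT 2. When 1 library was left out, Ly6a ranged from -0.30 to 0.02 and Icam1 from -0.21 to 0.02, and their ratios to Pdgfra from -0.19 to 0.40 and from -0.13 to 0.39. The cause of these changes was not tested. Clec11a gave no value with a filter at a mean of 5 CPM, and its 14 to 104 counts a library were the fewest of the 9. With all libraries its standard error, 0.57, was below the 0.72 of Pi16, whose counts were higher but spread more among WT mice.

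Replicate numbers were shared between groups, but same-numbered libraries correlated at 0.04, 0.04 and 0.09 in their deviations from group means. No library correlated best with its own number. With the replicate block, 1 gene and 0 members were called, and F3 was at -0.76 (edgeR adjusted p = 0.303).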
